A study of Homo sapiens with 12 samples.

Results

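The genes described here are the cytoplasmic translation factors of human HT1080 cells, that is, every gene listed in both expression tables of the study whose symbol starts with EEF or EIF and a digit. The eIF2 kinases, which share the start of the symbol, and pseudogenes were left out. 65 genes were found among the 15459 genes listed in both tables: 9 elongation factors, 38 initiation factors and 18 others, of which 8 modify or accompany elongation factors, 7 carry an initiation factor name but act elsewhere or by another route, and 3 are read-through or non-coding transcripts. The letter rule for pseudogenes also drops the 3 eIF4E-binding protein genes, which are described below with the regulators.

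Wild-type cells of HT1080, a fibrosarcoma line, were used, and their polyadenylated RNA was sequenced in 12 libraries. All cells were grown in biotin-depleted medium, first with 10% and, 3 days after seeding, with 1% fetal bovine serum. In the PMA experiment, 3 libraries were made 24 h after adding PMA (phorbol 12-myristate 13-acetate, which activates protein kinase C) at 40 nM, and 3 from controls. In the ConA experiment, 3 libraries were made 24 h after adding ConA (concanavalin A, a mannose-binding lectin) at 40 µg/mL, and 3 from controls of their own (numbered 4 to 6 in the labels). The labels name no vehicle for the controls and do not say whether the libraries of a group are separate cultures, so the p-values measure the spread between these libraries, which may be technical. The study set out to assess what each agent does to these cells. Each treatment belongs to its own experiment, so treatment and experiment cannot be told apart in any comparison between them.

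Protein synthesis runs through initiation, elongation and termination. In initiation, eIF2 brings the initiator tRNA to the small ribosomal subunit, eIF3 holds that complex together, and eIF4F (the cap-binding eIF4E, the scaffold eIF4G and the helicase eIF4A, helped by eIF4B and eIF4H) opens the mRNA so that the start codon can be found. In elongation, eEF1A delivers each aminoacyl-tRNA, the eEF1B subunits reload eEF1A with GTP, eEF2 moves the ribosome by a codon, and eIF5A, in spite of its name, helps peptide bonds form. The mRNAs of several of these factors, as of all ribosomal proteins, begin with a C followed by a run of pyrimidines (the 5' terminal oligopyrimidine or 5' TOP motif), a class known for joint control of translation and stability through mTOR and LARP1.

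Because that motif sits at the first bases of the mRNA, the start of each gene was read from RefSeq (GRCh38.p14). Each line gives 30 bases, 5′ to 3′ on the gene's strand, with 10 bases before the annotated start and 20 from it; capitals mark a run that begins with C at the start and goes on with at least 4 bases C or T. The first 8 are the members with such a run that fell most with ConA (for EEF1B2, the annotated start that has it). Members with a run that fell less, such as EIF4A2 (log2 fold change -0.18), are not printed. The last 4 are members without a run, shown for contrast and picked by no set rule. EEF1G fell with ConA and EIF5B, EIF4E and EIF5A2 rose, whereas of all 39 members without a run 18 fell and 9 rose.
EIF4B (chr12:53006446-53006475, plus strand): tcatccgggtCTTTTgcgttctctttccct
EEF2 (chr19:3985444-3985473, minus strand): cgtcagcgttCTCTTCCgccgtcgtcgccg
EEF1A1 (chr6:73521013-73521042, minus strand): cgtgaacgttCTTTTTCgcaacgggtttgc
EEF1B2 (chr2:206159885-206159914, plus strand): ctcttcgggtCCTTTTTCCTCTCTTCagcg
EIF3F (chr11:7987327-7987356, plus strand): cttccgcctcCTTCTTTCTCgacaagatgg
EIF2D (chr1:206612446-206612475, minus strand): ccagccgggcCCTTTTCgcggccgggcccc
EIF3K (chr19:38619178-38619207, plus strand): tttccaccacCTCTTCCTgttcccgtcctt
EIF3D (chr22:36529147-36529176, minus strand): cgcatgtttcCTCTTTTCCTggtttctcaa
EEF1G (chr11:62573872-62573901, minus strand): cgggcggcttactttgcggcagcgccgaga
EIF5B (chr2:99337379-99337408, plus strand): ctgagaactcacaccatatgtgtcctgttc
EIF4E (chr4:98929114-98929143, minus strand): tggagcggttgtgcgatcagatcgatctaa
EIF5A2 (chr3:170908618-170908647, minus strand): cccgtctcttggaactgccgcggccgccac

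Values below are normalized counts, counts per gene divided by 1 factor per library, made for each table apart and not divided by gene length. The estimated depth was 33639306 to 45593637 reads per library, and all 65 members passed the minimum mean of 10. Differences are log2 fold changes of value + 1 between treated and control libraries of the same table (n = 3 in each group), tested with limma across all genes with Benjamini-Hochberg adjustment. A gene rose or fell where its adjusted p was at most 0.05. All 10 mesenchymal markers were listed. They summed to 653740 to 658629 in PMA controls and 678891 to 704136 with PMA, and to 818473 to 881762 in ConA controls and 616100 to 676082 with ConA, while the 4 erythroid and 3 B cell markers were not listed. In the PMA experiment, 6 of 7 T and NK cell markers were listed (all but TRAC), and their sum was 928 to 1117 in controls and 1270 to 1705 with PMA. In the ConA experiment, 1 of them was listed (CD3D, 21.6 to 31.0 per library). Of 7 epithelial markers, 2 were listed in the PMA experiment, summing to 129.99 to 136 in controls and 65.9 to 81.3 with PMA, and 6 in the ConA experiment, summing to 162 to 170 in controls and 176 to 224 with ConA. Of 4 monocyte markers 3 were listed, at 331 to 366 in controls and 348 to 387 with PMA, and at 434 to 467 in controls and 373 to 437 with ConA. The part of these marker shifts in the results was not tested. In bulk samples like these, fewer cells and less RNA per cell cannot be told apart.

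Most translation factor transcripts were lower with ConA, and the median elongation factor lay further below its controls than the median initiation factor. Known 5' TOP mRNAs make up more of the elongation factors (6 of 9) than of the initiation factors (5 of 38), and that split is given below. With ConA 41 members fell, 9 rose and 15 did not pass the test. Over all genes tested, 32.5% fell and 32.8% rose. The median log2 fold change was -0.30 over the members, -0.53 over the elongation factors and -0.28 over the initiation factors, against 0.00 over all genes. By a stricter limit (at least 1 on the log2 scale in either direction, adjusted p no higher than 0.0001), 7 members fell (EEF1A1, EEF1B2, EEF1G, EEF2, EIF3F, EIF3L and EIF4B) and 0 rose. Of all 15139 genes tested, 436 (2.88%) fell and 882 rose by that limit. With PMA the median log2 fold change over the members was 0.09, against 0.00 over all genes. 29 rose, 12 fell and 24 did not pass, where 32.8% of all genes rose and 30.5% fell. Only EIF5A2 passed the stricter limit for a rise, as did 4.03% of all genes. For a fall 0 members passed it, against 699 of the 15153 genes tested. The PMA direction depends on the scaling: with libraries scaled to equal sums 17 members rose and 25 fell, and with quantile normalization 18 rose and 25 fell. Equal sums moved the median of all genes to -0.12 with PMA, and quantile normalization to -0.01. The shares of all genes that rose or fell under other scalings are not given here. Counts under those scalings, here and below, can therefore not be set against all genes. The ConA split was 10 up and 38 down, and 8 up and 40 down, under the same scalings.

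**Figure D1:**
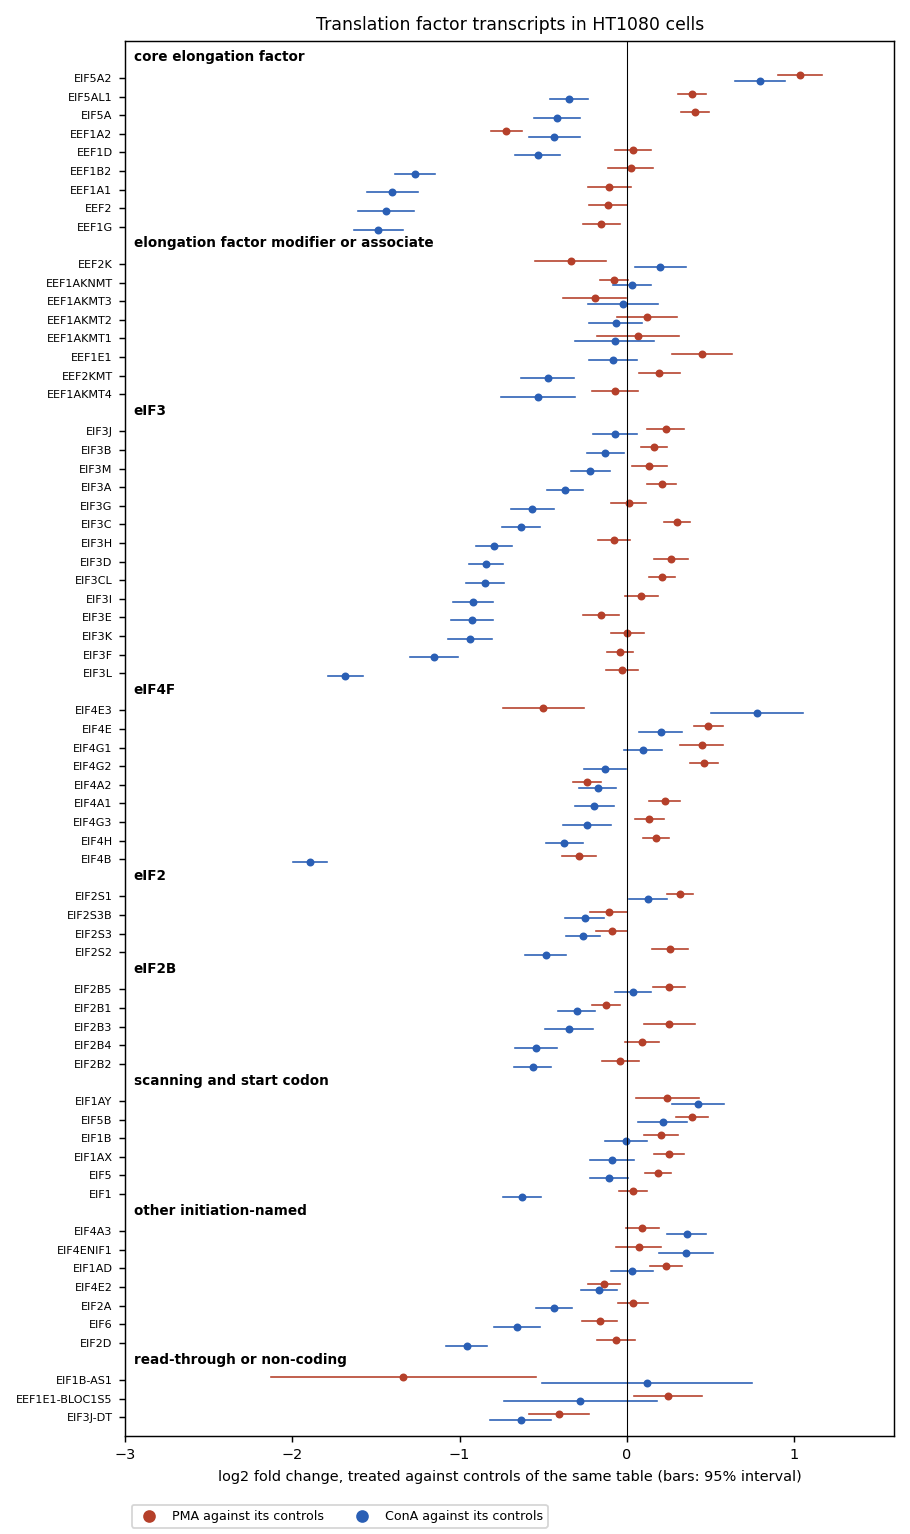
Log2 fold change (horizontal axis) of each of the 65 translation factor genes with PMA (red) and ConA (blue) against the controls of the same table, grouped by role, with bars for the 95% interval (n = 3 libraries per group). Most blue points lie left of 0, with EIF4B at -1.90 and EIF3L at -1.69 farthest, while the red points lie close to 0 except for EIF5A2 at 1.03, EEF1A2 at -0.72 and the low-level EIF1B-AS1.

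EEF1A1, which delivers aminoacyl-tRNA, was the highest gene of every library. It stood at 566880, 604355 and 568479 normalized counts in the ConA controls and at 227424, 218433 and 211924 with ConA, a 2.64-fold lower level (log2 fold change -1.40 ± 0.071 SE, adjusted p = 6.87e-10). All ConA libraries lay far below all controls. In the other experiment it measured 497109, 504150 and 464930 in controls and 447657, 466516 and 448987 with PMA, groups that overlap (log2 fold change -0.10 ± 0.059 SE, adjusted p = 0.146). Many processed pseudogenes share its sequence, so its count is uncertain where reads were shared. Quantile normalization gives the top gene 1 value in every library by construction and so shows no change for EEF1A1 (log2 fold change 0 with ConA).

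EEF2, the translocation GTPase, fell as far: 226372, 247471 and 260485 in the ConA controls against 98053, 83124 and 89503 with ConA (2.71-fold lower, log2 fold change -1.44 ± 0.077 SE, adjusted p = 1.17e-09). Its rank by normalized count among all genes of a library went from 3 to 4 in those controls to 18 to 22 with ConA. With PMA it measured 274426, 270792 and 286960 against 304223, 297714 and 297408 in controls (log2 fold change -0.11 ± 0.052 SE, adjusted p = 0.0795), so that the groups did not overlap but the test was not passed. With equal sums both EEF1A1 and EEF2 passed it with PMA, at -0.23 each, as they did without PMA control replicate 3 (-0.14 and -0.12). EEF2 had rank 2 in every library of the PMA experiment, so quantile normalization gives it 1 value there by construction. Under that scaling neither EEF1A1 nor EEF2 can be called with PMA, nor EEF1A1 with ConA.

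The eEF1B complex, which exchanges GDP for GTP on eEF1A, split by subunit. EEF1G, its structural subunit, had 72236, 82489 and 73772 in the ConA controls and 29405, 25867 and 26200 with ConA (2.80-fold lower, log2 fold change -1.49 ± 0.068 SE, adjusted p = 2.24e-10). EEF1B2, an exchange subunit, had 13151, 13560 and 12648 and 5775, 5447 and 5129 (2.41-fold lower, log2 fold change -1.27 ± 0.056 SE, adjusted p = 1.54e-10). EEF1D, the other exchange subunit, fell by less, from 16860, 18847 and 18258 to 13503, 11910 and 11907 (1.45-fold lower, log2 fold change -0.53 ± 0.063 SE, adjusted p = 4.23e-06). In none of these 3 genes did the ConA libraries overlap the controls. Such separation also occurred without a call, as for EEF1AKMT2 with ConA (-0.07, adjusted p = 0.443). Its share over all genes is not given here. With PMA, EEF1B2 (0.02, adjusted p = 0.756) and EEF1D (0.04, adjusted p = 0.519) did not pass the test. EEF1G fell by 0.15 with PMA (adjusted p = 0.0208), from 63115, 63362 and 56685 to 54140, 56206 and 54328, a call that ended when any of PMA control replicates 1 and 2 or PMA replicates 1 and 3 was left out (log2 fold change -0.13, -0.12, -0.14 and -0.14). EEF1D reversed with PMA under quantile normalization, to -0.20 (adjusted p = 0.00507).

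EEF1A2, the isoform of muscle and nerve, fell with both agents. Its PMA controls held 4983, 4818 and 5010 and its PMA libraries 3025, 2853 and 3114 (1.65-fold lower, log2 fold change -0.72 ± 0.043 SE, adjusted p = 6.16e-08). Its ConA controls held 3842, 4312 and 4108 and its ConA libraries 3089, 2722 and 3284 (1.35-fold lower, log2 fold change -0.43 ± 0.07 SE, adjusted p = 8.45e-05). It was the 1 elongation factor whose change was lower with PMA than with ConA (difference -0.29, adjusted p = 0.00937).

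The protein of the eIF5A genes carries the modified lysine hypusine. EIF5A rose with PMA, from 23760, 23725 and 22411 to 30665, 30904 and 31059 (log2 fold change 0.41 ± 0.039 SE, adjusted p = 3.23e-06), and fell with ConA, from 35493, 39622 and 36512 to 30126, 26666 and 26772 (log2 fold change -0.42 ± 0.064 SE, adjusted p = 4.95e-05). EIF5AL1, a near-identical copy whose reads cannot be told from EIF5A with certainty, had the same directions (0.39 with PMA, adjusted p = 3.54e-06, and -0.35 with ConA, adjusted p = 5.87e-05). EIF5A2, the second gene of the factor, rose with both agents. It went from 854, 748 and 808 to 1653, 1703 and 1576 with PMA (2.05-fold higher, log2 fold change 1.03 ± 0.059 SE, adjusted p = 4.3e-08) and from 863, 807 and 812 to 1360, 1556 and 1405 with ConA (1.74-fold higher, log2 fold change 0.80 ± 0.069 SE, adjusted p = 1.91e-07). It was the only 1 of the 9 elongation factors that rose with ConA.

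**Figure D2:**
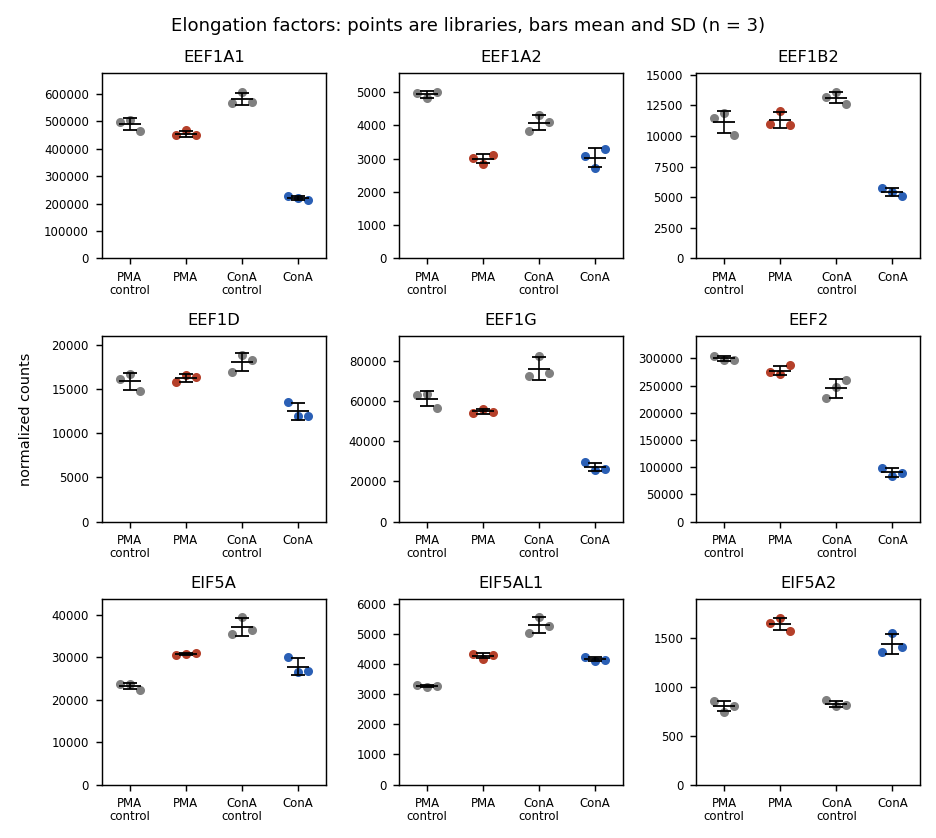
Normalized counts (vertical axis, from 0, own scale per gene) of the 9 elongation factors in the 12 libraries, by group (horizontal axis), with the mean and SD of 3 libraries. The ConA libraries lie below their controls for 8 genes and above them for EIF5A2, whereas with PMA the shift is clear for EEF1A2 (down) and for EIF5A, EIF5AL1 and EIF5A2 (up).

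Summed over the 9 genes, the elongation factors made up 2.28% ± 0.070 (SD, n = 3) of all normalized counts in ConA controls, against 0.954% ± 0.039 in ConA libraries. The 38 initiation factors made up 1.19% ± 0.020 and 0.919% ± 0.0034. The ratio of the sums was 1.92 ± 0.073 in controls and 1.04 ± 0.045 with ConA. In the PMA experiment the elongation sum was 2.46% ± 0.075 in controls and 2.13% ± 0.023 with PMA, the initiation sum 1.31% ± 0.012 and 1.32% ± 0.0058, and the ratio 1.88 ± 0.054 and 1.61 ± 0.010. These sums are a description, and EEF1A1 and EEF2 carried 79.2% to 86.8% of the elongation sum on average in each group. Per kilobase of transcript, on the level scale of the ConA controls, EEF1A1 (130580) and EEF2 (77363) led, followed by EEF1G (50010), EIF4A1 (28786) and EIF5A (24626). These use the longest principal transcript of each gene, and another isoform would give another level.

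**Figure D3:**
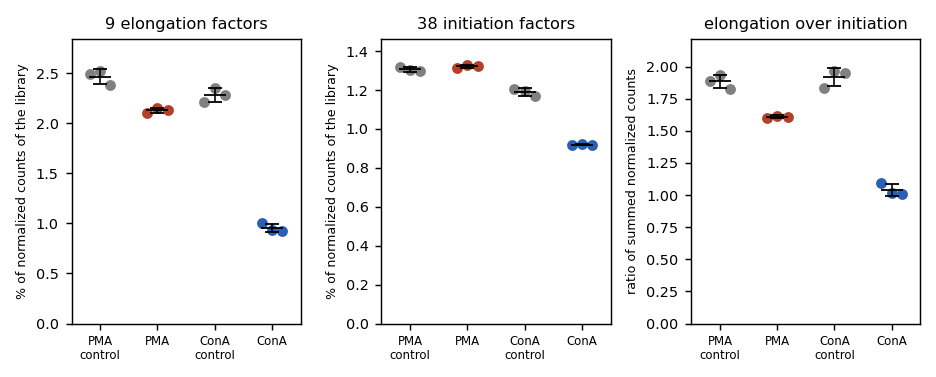
Percent of the normalized counts of each library in the 9 elongation factors (left) and the 38 initiation factors (middle), and the ratio of the sums (right), as 1 point per library with the mean and SD of 3 libraries per group. The elongation share was 0.928% to 0.999% in the ConA libraries, and the ratio reached 1.01 to 1.09 there against 1.83 to 1.97 in the ConA controls.

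Among initiation factors, eIF3, the scaffold of the initiation complex, fell as a group with ConA. Of its 14 genes 13 fell (median log2 fold change -0.82) and EIF3J, a loosely bound subunit, did not pass the test (-0.07, adjusted p = 0.335). EIF3L had 20881, 20836 and 20736 in the ConA controls and 6637, 6283 and 6506 with ConA (3.22-fold lower, log2 fold change -1.69 ± 0.048 SE, adjusted p = 1.07e-12). EIF3F had 7695, 7985 and 8121 and 3928, 3590 and 3212 (2.22-fold lower, log2 fold change -1.15 ± 0.067 SE, adjusted p = 2.91e-09). The spread within the complex was wide, since the core scaffold genes EIF3A (-0.37, adjusted p = 1.47e-05) and EIF3B (-0.13, adjusted p = 0.0426) fell far less than EIF3L, and the EIF3B call was lost with equal sums (-0.062). In between lay EIF3K at -0.94, EIF3E and EIF3I at -0.92 each, EIF3CL at -0.85, EIF3D at -0.84 and EIF3H at -0.80. EIF3C and EIF3CL are near-identical and may share reads.

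With PMA 7 eIF3 genes rose and 1 fell, with a median of 0.11, but 1 rose and 7 fell under quantile normalization and 3 rose and 5 fell with equal sums. EIF3C was highest (0.30, adjusted p = 2.25e-05), and EIF3D, which helps bind the cap of some mRNAs, rose by 0.26 (adjusted p = 0.000395) from 16534, 16713 and 15152 to 18888, 19980 and 19150, a call lost under quantile normalization (0.022). EIF3E was lowest (-0.15, adjusted p = 0.0177), a call that ended without PMA control replicate 1 (-0.12) or without PMA replicate 1 (-0.11) or 3 (-0.15).

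EIF4B, which stimulates the eIF4A helicase, fell most of all members with ConA. It had 30550, 31253 and 30114 in the controls and 8231, 8179 and 8289 with ConA (3.72-fold lower, log2 fold change -1.90 ± 0.048 SE, adjusted p = 2.59e-13). With PMA it fell too, from 36171, 33382 and 37582 to 29327, 28977 and 29318 (log2 fold change -0.29 ± 0.047 SE, adjusted p = 0.000232). The other eIF4F genes moved less with ConA. Of the 9 genes 5 fell and 2 rose with it (median -0.18), and under quantile normalization 3 fell and 3 rose.

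EIF4E, the cap-binding subunit, rose with both agents, with 2228, 2126 and 2168 in the PMA controls, 3016, 3081 and 3044 with PMA (log2 fold change 0.49 ± 0.039 SE, adjusted p = 8.15e-07), 2866, 2781 and 2620 in the ConA controls and 2969, 3250 and 3301 with ConA (log2 fold change 0.20 ± 0.06 SE, adjusted p = 0.00815). The scaffold EIF4G1 rose with PMA from 32982, 30377 and 35595 to 46729, 42555 and 45420 (log2 fold change 0.45 ± 0.059 SE, adjusted p = 4.77e-05). EIF4G2, a related scaffold that lacks the eIF4E site, did the same from 30056, 28756 and 30336 to 40973, 40672 and 40926 (log2 fold change 0.46 ± 0.038 SE, adjusted p = 1.05e-06). These 3 rises with PMA passed the test under every scaling tried. With ConA neither EIF4G1 (0.10, adjusted p = 0.123) nor EIF4G2 (-0.13, adjusted p = 0.0608) passed, although EIF4G1 did under quantile normalization (0.26) and with equal sums (0.16) and EIF4G2 after median centring (-0.20). In all, 6 eIF4F genes rose and 3 fell with PMA, and 4 rose and 3 fell under either of those scalings.

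EIF4E3, a minor cap-binding relative of low level, went opposite ways. It fell with PMA from 202, 199 and 242 to 143, 164 and 146 (log2 fold change -0.50 ± 0.11 SE, adjusted p = 0.00215) and rose with ConA from 110.5, 96.0 and 121 to 171, 201 and 191 (log2 fold change 0.78 ± 0.13 SE, adjusted p = 0.000106). Neither pair of groups overlapped, a separation whose share over all genes is not given here.

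**Figure D4:**
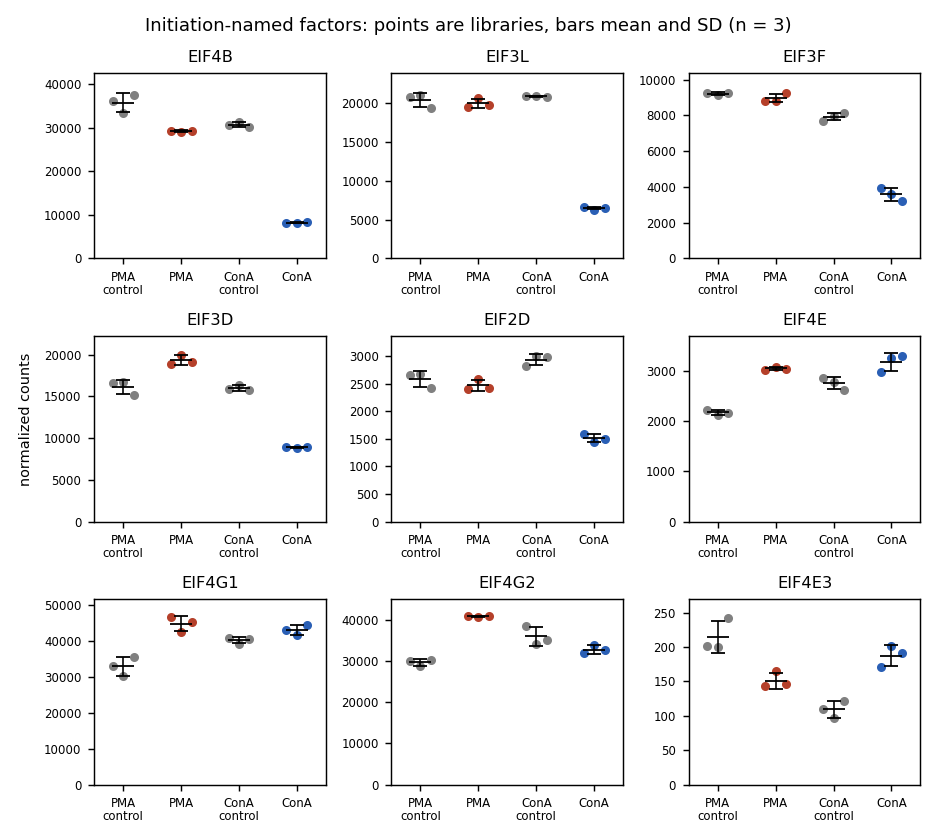
Normalized counts (vertical axis, from 0, own scale per gene) of 9 genes named as initiation factors in the 12 libraries, by group (horizontal axis), with the mean and SD of 3 libraries. EIF4B, EIF3L, EIF3F, EIF3D and EIF2D drop with ConA, whereas EIF4E, EIF4G1 and EIF4G2 stand higher with PMA and EIF4E3 moves in opposite directions.

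The genes of eIF2, which carries the initiator tRNA, and of its exchange factor eIF2B moved modestly. With ConA EIF2S2, the beta subunit, fell most (-0.49, adjusted p = 4.07e-06), from 7763, 8121 and 7557 to 5880, 5666 and 5212. EIF2S1, the alpha subunit that the eIF2 kinases phosphorylate, rose with PMA from 4865, 4791 and 4834 to 5889, 6062 and 6094 (0.32, adjusted p = 1.29e-05). Its ConA value (0.13, adjusted p = 0.0484) lay at the threshold and passed it neither under quantile normalization (0.11) or median centring (0.06) nor without ConA control replicate 4 (0.14) or 6 (0.10) or ConA replicate 2 (0.10) or 3 (0.12). In all 2 of 4 eIF2 genes rose and 0 fell with PMA (1 rose and 2 fell under quantile normalization, 2 and 2 with equal sums), and 3 fell and 1 rose with ConA. EIF2S3B, the retrocopy of EIF2S3, had the lowest eIF2 value with PMA (-0.11, adjusted p = 0.0827), and was called lower under quantile normalization (-0.22) and with equal sums (-0.23). Of 5 eIF2B genes, 4 fell with ConA, most of all EIF2B2 (-0.56, adjusted p = 3.58e-07), while the catalytic EIF2B5 did not pass (0.03, adjusted p = 0.557). With PMA 2 of them rose (2 rose and 2 fell under quantile normalization, 1 and 2 with equal sums), EIF2B3, whose call was lost with equal sums (0.13), and, highest, EIF2B5 (0.25, adjusted p = 0.000359), and EIF2B1 fell (-0.12, adjusted p = 0.0156), a call lost without PMA control replicate 1 (-0.12) or 2 (-0.11) or PMA replicate 1 (-0.12).

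Of the 6 genes for scanning and start codon choice, 5 rose with PMA and 0 fell (2 and 0 with equal sums, 3 and 1 under quantile normalization), and 2 rose and 1 fell with ConA (1 and 3 after median centring). EIF5B, the GTPase that joins the subunits, rose with PMA from 6343, 5730 and 6204 to 7936, 7920 and 8089 (0.39, adjusted p = 1.19e-05) and with ConA (0.21, adjusted p = 0.0125, not called after median centring). EIF1, which keeps start codon choice strict, fell with ConA (-0.63, adjusted p = 1.34e-07) and was named after its values were seen.

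Among the 7 genes with an initiation factor name but another role, EIF2D, an alternative tRNA and recycling factor, fell with ConA from 2820, 2995 and 2980 to 1586, 1442 and 1497 (1.94-fold lower, log2 fold change -0.96 ± 0.058 SE, adjusted p = 4.96e-09). In all 4 of these 7 fell and 2 rose with ConA, and 2 fell and 1 rose with PMA (3 and 1 with equal sums or quantile normalization). Of the 8 modifiers and partners of elongation factors, 2 rose and 1 fell with PMA and 1 rose and 2 fell with ConA. With equal sums 1 rose and 4 fell with PMA, and under quantile normalization 0 rose and 4 fell with ConA. EEF1E1, a scaffold of the tRNA synthetase complex, rose with PMA from 901, 939 and 745 to 1105, 1212 and 1205 (0.45, adjusted p = 0.000543). EEF2K, the kinase that inhibits eEF2, fell with PMA (-0.34, adjusted p = 0.0102) and rose with ConA (0.20, adjusted p = 0.0235), and the ConA call was lost under quantile normalization (0.15) and median centring (0.14). Of the 3 read-through or non-coding transcripts, EIF3J-DT, which is divergent to EIF3J, fell with both agents (-0.41, adjusted p = 0.00106 with PMA and -0.64, adjusted p = 1.49e-05 with ConA). EIF1B-AS1, antisense to EIF1B, was near the detection level, with 19.4, 20.6 and 21.7 in the PMA controls and 8.13, 4.75 and 10.8 with PMA (-1.34, adjusted p = 0.00688). The strand setting of the counting is not given in the sources used here, so reads of such a pair cannot be assigned to 1 strand.

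The difference between the treatments was tested in 1 model over all 12 libraries. The change was higher with PMA than with ConA for 48 members and lower for 6, where 30.4% of all genes were higher and 30.7% lower. The median difference was 0.83 over the elongation and 0.47 over the initiation factors, on the log2 scale. Past the stricter limit were 10 members that were higher (3.67% of all genes) and 1 that was lower, EIF4E3 (6.89% of all genes). The largest difference was that of EIF3L (1.65, adjusted p = 2.79e-13, 95% interval 1.52 to 1.78), followed by EIF4B (1.61, adjusted p = 6.72e-13). For all 14 eIF3 genes and all 5 eIF2B genes the change was higher with PMA than with ConA, which need not be a rise with PMA. EIF5A2 rose with both, and its difference of 0.24 (adjusted p = 0.0327) was not called without PMA control replicate 2 (0.19), PMA replicate 1 (0.23) or 2 (0.21), ConA control replicate 4 (0.21) or ConA replicate 1 (0.20) or 3 (0.22), or with equal sums (0.05).

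The 11 members known as 5' TOP mRNAs (EEF1A1, EEF1A2, EEF1B2, EEF1D, EEF1G, EEF2, EIF3A, EIF3E, EIF3F, EIF3H and EIF4B) all fell with ConA, with a median log2 fold change of -1.15. Of the 54 others 30 fell and 9 rose, with a median of -0.21. Within the initiation factors the median with ConA was -0.92 for the 5 on the list and -0.24 for the 33 others. Within the elongation factors it was -1.34 for the 6 on the list, while EIF5A, EIF5AL1 and EIF5A2, not on it, were at -0.42, -0.35 and 0.80. With PMA 1 of the 11 rose (EIF3A) and 4 fell, with a median of -0.10, and of the others 28 rose and 8 fell, with a median of 0.13. Those PMA counts depend on the scaling: of the 11, 0 rose and 7 fell under quantile normalization and 0 rose and 8 fell with equal sums (EIF3A at 0.016 and 0.087, neither called), and of the others 18 rose and 18 fell, and 17 rose and 17 fell. With ConA 10 of the 11 fell under quantile normalization, all but EEF1A1, which that scaling holds fixed. With PMA it holds both EEF1A1 and EEF2 fixed. EIF3L, the second lowest member with ConA, is not on that list.

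The bases at the start gave another grouping, which overlaps the list, since EEF1A1, EEF1B2, EEF2, EIF3F and EIF4B are in both. These genes had the largest falls with ConA among members with a run. The others with a run lay from EIF2D at -0.96 to EIF4A2 at -0.18, and include both EIF2S3 and its retrocopy EIF2S3B. A start was listed for 52 members. In 13 of them (25.0%) at least 1 listed start was a C followed by at least 4 pyrimidines on the gene's own strand, as in the 8 capitalized runs above. EEF1B2 and EIF2S3B had 2 listed starts each, of which 1 had the run. In all, 7.18% of the 11757 genes with a start that are listed in both tables had such a run. The share was 3 of 7 among elongation factors, 8 of 31 among initiation factors and 2 of 14 among the others. With ConA all 13 members with a run fell, with a median of -0.94, from EIF4B at -1.90 to EIF4A2 at -0.18. Of the 39 without a run 18 fell and 9 rose, with a median of -0.13. Of the 13 members with no listed start 10 fell and 0 rose, with a median of -0.49 and EIF3L lowest at -1.69. EEF1G fell by 1.49 with no run at its annotated start. With PMA 2 of the 13 rose and 2 fell (median -0.06), against 23 and 8 of the 39 (median 0.19). The even split of the 13 was not kept under other scalings, with 1 rise and 9 falls with equal sums and 0 and 7 under quantile normalization, against 14 and 10, and 17 and 11, of the 39. Among the 13, quantile normalization holds EEF1A1 and EEF2 fixed with PMA, and EEF1A1 with ConA. With ConA 12 of the 13 fell with equal sums and 11 under quantile normalization, and 0 rose under either. A run at an annotated start is a description of these letters, not of the start used in these cells.

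**Figure D5:**
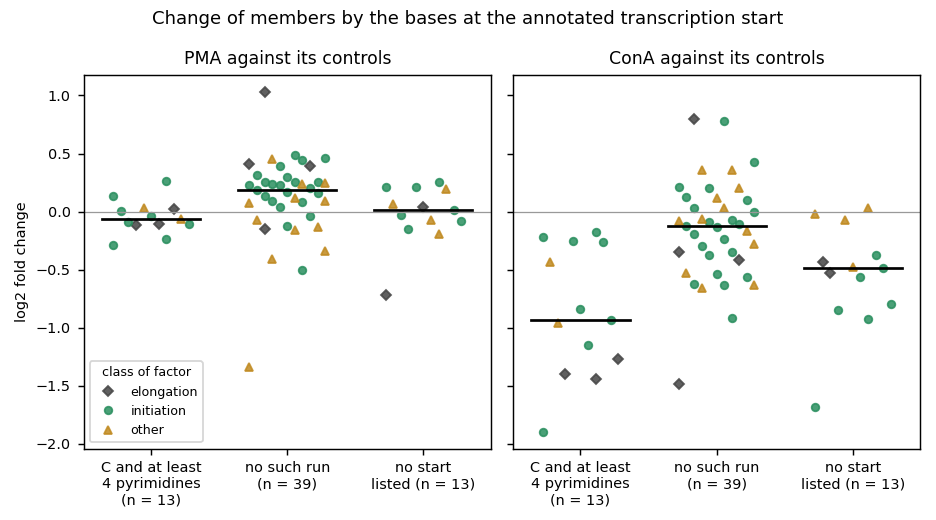
Log2 fold change (vertical axis) of each member with PMA (left) and ConA (right), with marks by class and a bar at the median. Members are split by whether any listed RefSeq start is a C followed by at least 4 pyrimidines. With ConA the 13 members with a run all lie below 0 around a median of -0.94, while the 39 without one spread from -1.49 to 0.80. The last column holds the 13 members with no listed start, with a median of -0.49 with ConA.

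Regulators of these factors were read from the same fits. Over all genes tested, 32.8% rose and 30.5% fell with PMA, and 32.8% rose and 32.5% fell with ConA. Some of the counts per list below lie near these shares, and no list was tested as a set. EIF4EBP1, which sequesters eIF4E, rose with PMA (0.42, adjusted p = 1.54e-05) and fell with ConA (-0.80, adjusted p = 9.7e-07). EIF4EBP3 fell with both (-0.77, adjusted p = 0.0477 and -1.60, adjusted p = 0.00125) at a level of at most 66 on average, the PMA call being lost under quantile normalization (-0.53), and EIF4EBP2 fell with PMA (-0.18, adjusted p = 0.0187) but did not pass with ConA (-0.11, adjusted p = 0.0564), although it did under quantile normalization (-0.12) and after median centring (-0.18). Of the 8 eIF2 kinase and phosphatase genes, 3 rose and 3 fell with PMA, and 2 rose and 5 fell with ConA. With equal sums 3 rose and 5 fell, and 2 rose and 3 fell. EIF2AK2, the double-stranded RNA sensor PKR, rose with ConA (1.87, adjusted p = 1.32e-11) and fell with PMA (-0.28, adjusted p = 0.0027). PPP1R15A, the inducible eIF2 phosphatase subunit GADD34, rose with PMA (1.75, adjusted p = 7.8e-12) and fell with ConA (-0.14, adjusted p = 0.032), a fall not called with equal sums (-0.072). PPP1R15B rose with PMA (0.50, adjusted p = 1.1e-06), and PPP1CA fell with ConA (-0.41, adjusted p = 3.31e-05). EIF2AK1 fell with PMA (-0.33, adjusted p = 2.39e-05), and EIF2AK3 fell with ConA (-0.35, adjusted p = 0.000624).

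Of 14 genes of mTOR, S6 kinase and MNK signalling, 2 rose and 5 fell with PMA, and 5 rose and 6 fell with ConA. With PMA 2 rose and 9 fell under quantile normalization and 2 rose and 10 fell with equal sums. DEPTOR, an mTOR inhibitor, fell with PMA (-1.83, adjusted p = 4.97e-07) and with ConA (-1.48, adjusted p = 3.22e-07). AKT1S1, another one, fell with ConA (-0.98, adjusted p = 3.4e-09), as did the S6 kinase gene RPS6KB2 (-0.78, adjusted p = 1.28e-07). The eIF4E kinase genes MKNK1 (-0.52, adjusted p = 4.68e-05) and MKNK2 (-0.58, adjusted p = 6.92e-07) fell with PMA. Genes of the list that rose, named after their values were seen, were MTOR itself with PMA (0.51, adjusted p = 1.41e-06) and, with ConA, MKNK1 (0.42, adjusted p = 0.000115), RPS6KB1 (0.39, adjusted p = 0.000156) and LARP1, the binder of 5' TOP mRNAs (0.35, adjusted p = 6.02e-05). Of 9 hypusine and diphthamide enzymes, 4 rose and 2 fell with PMA (2 and 2 with equal sums), and 0 rose and 5 fell with ConA. DPH5 fell with PMA (-0.54, adjusted p = 4.11e-05) and with ConA (-0.96, adjusted p = 1.36e-08), DPH6 fell with ConA (-0.70, adjusted p = 3.22e-05), as did DPH1 (-0.49, adjusted p = 3.59e-05), and DHPS, which starts hypusine synthesis, rose with PMA (0.39, adjusted p = 6.58e-05), as did DPH3 (0.30, adjusted p = 0.000106).

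Release and recycling factors rose with PMA, 7 of 8 (5 of 8 with equal sums or quantile normalization), led by PELO (0.53, adjusted p = 7.49e-06), GSPT1 (0.51, adjusted p = 3.65e-06) and DENR (0.38, adjusted p = 5e-06), while 6 fell and 1 rose with ConA (3 and 1 with equal sums). There HBS1L (-0.72, adjusted p = 3.56e-08) and the release factor gene ETF1 (-0.46, adjusted p = 1.78e-06) fell and PELO rose (0.60, adjusted p = 2.43e-07). Of 5 poly(A)-binding protein genes and partners, 1 rose and 3 fell with PMA, and 2 rose and 2 fell with ConA. PABPC4 (-1.04, adjusted p = 4.5e-10) and PABPC1 (-0.98, adjusted p = 1.49e-09) fell with ConA, and PAIP2B fell with PMA (-1.36, adjusted p = 0.00101), PAIP2 rose (0.69, adjusted p = 9.51e-08) and PABPC1 fell (-0.30, adjusted p = 0.00128) there. The change of PAIP2B with ConA (-0.63, adjusted p = 0.059) did not pass the test, but did under quantile normalization (-0.75) and after median centring (-0.69).

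Of 6 other 5' TOP mRNAs that encode no ribosomal protein, all fell with ConA, with a median of -0.72, including RACK1 (-0.997, adjusted p = 9.28e-09), PABPC1 and VIM (-0.79, adjusted p = 9.08e-08). With PMA 1 rose, VIM (0.49, adjusted p = 7.18e-06), and 1 fell, PABPC1, while RACK1 did not pass (-0.06, adjusted p = 0.375). Under quantile normalization and with equal sums 1 rose and 4 fell with PMA, RACK1 among the falls (-0.16 and -0.18). Of 9 mitochondrial translation factors, 3 rose and 1 fell with PMA, 2 and 2 under quantile normalization and 2 and 3 with equal sums. MTRF1L (0.68, adjusted p = 1.26e-07) and GFM1 (0.48, adjusted p = 1.76e-06) rose and MTIF3 fell (-0.26, adjusted p = 0.00856). With ConA 1 rose and 6 fell (1 and 4 with equal sums), among them TUFM (-0.85, adjusted p = 3.25e-08), MRRF (-0.83, adjusted p = 4.28e-08) and MTIF2 (-0.45, adjusted p = 9.05e-06). For selenocysteine, SECISBP2 rose with PMA (0.52, adjusted p = 1.5e-06) and EEFSEC did not pass (0.08, adjusted p = 0.179), and with ConA neither passed (0.00, adjusted p = 0.985 and 0.06, adjusted p = 0.502).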

How the data were processed

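RNA was extracted from HT1080 cells, enriched for polyadenylated RNA and sequenced by Azenta Life Science. The deposited signal values are normalized counts per gene symbol, which the authors divided by 1 factor per library, for each of 2 tables apart. The submitters' processing notes name Partek, Bowtie2, STAR and DESeq2 and the builds hg19 and mm10, without roles or versions, and the paper gives no test. Between 80.2% and 82.6% of the values from 5 to 60 were whole reads (within 0.02) under the best factor of each library, so counts were partly estimated and no count model was fitted. Shared reads could move values of near-identical genes (EIF5A and EIF5AL1, EIF3C and EIF3CL, EIF2S3 and EIF2S3B, EIF1AX and EIF1AY).

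Libraries were grouped by the treatment in the labels. Genes with a mean of at least 10 were tested by limma 3.58.1 under R 4.3.3, with variances moderated along a trend, on log2(value + 1), with Benjamini-Hochberg adjustment over all genes of a table. The test was run on simulated counts with known changes and a fixed spread that was not estimated from these libraries. That check covered the size and recovery of the changes and set no limit on false calls. With 3 libraries per group an exact permutation test of a single value cannot go below 0.1 and was not used. The difference between treatments was fitted over all 12 libraries. No set test was run.

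The members, role lists, 5' TOP list and regulator lists were chosen with earlier results of these data known. Regulator lists cover eIF4E-binding proteins, eIF2 kinases and phosphatase subunits, mTOR and MNK signalling, hypusine and diphthamide enzymes, release and recycling factors, poly(A)-binding proteins, mitochondrial factors, other 5' TOP mRNAs and selenocysteine factors. Named were all elongation factors, the 10 other members with the largest called change per treatment, the 6 with the largest called difference between treatments, members past the stricter limit, the highest and lowest of eIF2, eIF2B, eIF3 and eIF4F, and the 3 with the largest change of each regulator list. A few more are given as lists or beside these, chosen after their values were seen. Start sequences came from RefSeq (GRCh38.p14) and transcript lengths from GENCODE 29, which had 62 of the members. No coordinates of the study's own build were used.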

Additional observations from a re-analysis of the deposited data

Results flagged for a closer look

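For 11 members the change differed between PMA and ConA by at least 1 on the log2 scale, tested in limma over all 12 libraries as a contrast of both changes (PMA less ConA). The differences were 1.65 for EIF3L, 1.61 for EIF4B, 1.34 for EEF1G, 1.33 for EEF2, 1.30 for EEF1A1, 1.29 for EEF1B2, 1.11 for EIF3F, 1.10 for EIF3D, 1.06 for EIF3CL and 1.01 for EIF3I. EIF4E3 alone went the other way, at -1.28. The adjusted p of these tests ran from 2.79e-13 for EIF3L to 4.77e-06 for EIF4E3. Each agent was given in its own experiment with its own controls, so the agent cannot be told apart from the experiment here. Near-identical EIF3C may share reads with EIF3CL.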

How the results depend on the processing

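With PMA, quantile normalization gave 18 members higher and 25 lower, with medians of 0.0044 over initiation factors, -0.20 over 5' TOP members and 0.012 over members not on that list. Equal library sums gave 17 and 25, with medians of -0.10 over elongation and 0.046 over initiation factors, -0.23 over 5' TOP members and 0.013 over the others. With ConA, the medians were -0.92 over 5' TOP members under quantile normalization, -0.22 over initiation factors and -0.14 over members off the 5' TOP list with equal sums, and -0.34 and -0.27 for the latter pair after median centring. The medians of the difference were 0.51 over elongation factors, 0.25 over initiation factors, 0.63 over 5' TOP members and 0.25 over the others under quantile normalization, 0.64, 0.29, 0.92 and 0.16 with equal sums (with 11 members lower), and 0.52 over initiation factors and 0.40 over members off the list after median centring. EEF1D with PMA reversed under quantile normalization, to -0.20. Without a variance trend 7 members were lower with PMA. The stricter limit left 1 higher and 0 lower with PMA, 0 and 7 with ConA, and 10 and 1 for the difference. A limit of 0.5 left 1 and 2, 2 and 23, and 29 and 3. The share of all genes past that limit is not given here, so these counts cannot be set against it. Leaving out 1 library moved the ConA median over members off the 5' TOP list between -0.22 and -0.17 and that of the difference between 0.31 and 0.35. These further groupings were chosen after seeing the data. With eEF1 and eEF2 subunits only, the elongation medians were -0.11 with PMA, -1.34 with ConA and 1.30 for the difference. Without near-identical copies they were -0.90 with ConA and 1.06 for the difference, and the initiation median of the difference was 0.53. The cause was not tested, beyond what each setting changes by its construction. PMA libraries and their controls share replicate numbers. Correlations of deviations were -0.06, 0.10 and 0.10 for equal numbers and ran from -0.18 to 0.11 for unequal ones. With 3 libraries per group these values cannot settle whether the numbers mark pairs. The fit with the number as a block called 29 members higher and 12 lower. ConA shares no numbers with its controls. Pseudocounts of 0.1 and 10, no minimum mean, a minimum of 50 and a joint fit kept every count within 1.5 times. Of the settings tried on single named genes, 93 lost a call, 7 gained one, 1 reversed and 1128 did neither. Among low members, EIF1B-AS1 lay at 4.75 to 21.7 normalized counts in the PMA experiment, with a 95% interval of -2.13 to -0.55 for its log2 fold change.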

Other observations

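A C followed by at least 4 pyrimidines at any listed RefSeq start was also read in genes outside the family. Of 824 such genes tested with ConA, 369 fell (44.8%) and 198 rose (24.0%), with a median log2 fold change of -0.12. Without ribosomal protein genes 321 of 776 fell (41.4%). Among 10669 genes with a listed start and no such run, 31.7% fell and 34.5% rose. With PMA the shares that fell were 34.0% with a run and 30.1% without one. These are counts over genes, which are not independent replicates, and no test was run on them.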
